A study of Homo sapiens with 18 samples.

Results

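The genes described here are 34 genes of the ATF4 stress response and of one-carbon metabolism, named in a fixed list of gene symbols and found by symbol among the 34912 genes measured by RNA sequencing of LNCaP cells. LNCaP is a human prostate cancer cell line that keeps the androgen receptor and grows in response to androgen. Of the 34 genes, 33 were expressed highly enough to be tested. The list holds 9 transcription factors and their partners, 5 stress effectors, 8 genes of amino acid supply, 3 enzymes of serine synthesis, 7 of the folate cycle and glycine cleavage, and 2 of the methionine cycle.

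Each of 6 groups received an siRNA and a treatment. The groups were siNFYA with R1881, siNFYA with vehicle, siKLF5 with R1881, siKLF5 with vehicle, control siRNA with R1881, and control siRNA with vehicle. NFYA is the part of the trimeric factor NF-Y that reads the letters CCAAT in DNA, KLF5 is a zinc-finger transcription factor, and R1881 is a synthetic androgen. All cells were first deprived of steroids for 48 h in 5% charcoal-stripped serum and then treated for 24 h with 10 nM R1881 or with the vehicle, 96% ethanol. Each group had 3 libraries, except siKLF5 with vehicle, where replicate 1 was not analysed here and n = 2. The labels do not say whether the libraries came from separate cultures, so the p-values measure the spread between these libraries, which may be technical. All of this was done in 1 cell line.

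ATF4 is a leucine-zipper transcription factor whose protein is made when phosphorylation of the initiation factor eIF2 alpha slows most other translation. It pairs with C/EBP proteins on a short composite element with the core TGATGNAA (N is any base) and switches on genes that make, import and charge amino acids. Several of its targets feed serine and glycine into the folate cycle, which supplies single-carbon units for purines, thymidylate and methionine. Prostate cancer cells secrete large amounts of protein under androgen, and their amino acid metabolism is known to respond to it.

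In control cells, R1881 raised 25 of the 33 tested genes and lowered 4, where 32.1% of all tested genes were higher and 30.8% lower. CHAC1, CTH, ATF3, NUPR1, PCK2 and CEBPB rose at least 2-fold, and the glycine decarboxylase GLDC fell by more than 2-fold. The mitochondrial folate enzymes SHMT2, MTHFD2 and MTHFD1L rose, whereas the cytosolic enzymes SHMT1 and MTHFD1 fell. Knockdown of NFYA raised 20 of the 33 genes in vehicle, by at most 1.31-fold, beside 6.67% of all tested genes. In R1881 it gave 1 higher gene, ASNS, and 1 lower, MTHFD2, near the 2.63% and 3.33% of all genes. Both changes were small, and both calls were lost in DESeq2 and without some single libraries. The log2 change with R1881 was lower with siNFYA than with control siRNA for all 33 genes. The 25 rises were thus smaller, and the falls of GLDC, JDP2, MTHFD1 and SHMT1 were larger. For 11 genes, none of these 4, the difference itself passed the test, beside 0.722% of all genes. With siKLF5, no gene of the list passed the test in either treatment, where 1.32% of all genes passed in vehicle and 1.38% with R1881. The signs leaned the same way as with siNFYA, though by less. In vehicle 28 of the 33 changes with siKLF5 were positive, and 26 of the 33 interactions with R1881 were negative.

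The knockdowns lowered their targets in most comparisons. NFYA averaged 46.2 ± 2.01 CPM (counts per 1000000, scaled over all libraries together) with siNFYA and 70.9 ± 2.48 CPM with control siRNA in vehicle (SD, n = 3 each), and 56.4 ± 2.59 and 86.9 ± 2.61 CPM with R1881. KLF5 averaged 12.8 ± 2.07 CPM with siKLF5 and 28.4 ± 3.34 CPM with control siRNA in R1881. In vehicle KLF5 was low, at 0.932 and 3.03 CPM with siKLF5 against 3.26 to 4.91 CPM with control siRNA, and that difference did not pass the test (log2 -1.08 ± 0.35, edgeR adjusted p = 0.149). Library totals lay between 4416653 and 6872421 estimated counts. All 10 luminal prostate markers were above 1 CPM in every group and their sum was 15400 to 16900 CPM in R1881 libraries against 3760 to 4160 CPM in vehicle libraries. None of the 3 basal markers reached 1 CPM (KRT5 was at 0), whereas 3 of 5 stromal markers did, with sums of 15.2 to 22.6 CPM in R1881 and 17.3 to 28.1 CPM in vehicle, as did 2 of 4 blood and endothelial markers, with sums of 8.81 to 16.3 and 8.57 to 14.3 CPM. Of the neuroendocrine markers 2 of 4 did so, with sums of 12.9 to 20 CPM in R1881 and 33.9 to 44.4 CPM in vehicle.

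Levels between genes were compared per transcript length, in TPM (transcripts per 1000000). In control vehicle libraries PHGDH, the enzyme of the first step of serine synthesis, was the highest, at 725 ± 53.7 TPM (SD, n = 3). ATF4 followed with 424 ± 11.8 TPM and the mitochondrial serine hydroxymethyltransferase SHMT2 with 356 ± 9.37 TPM. PSAT1, the serine-synthesis aminotransferase, had 270 ± 6.37 TPM and AHCY, which clears S-adenosylhomocysteine, had 254 ± 9.71 TPM, close to PSAT1 within the spread. NUPR1 at 235 ± 12.4 TPM and PYCR1 at 229 ± 8.71 TPM did not differ beyond their spread. At the low end were CHAC1 with 16.1 ± 2.09 TPM, CTH with 8.14 ± 1.83 TPM and GLDC with 5.41 ± 0.343 TPM. ALDH1L2, a mitochondrial folate dehydrogenase, lay between 0 and 1.79 CPM over all libraries and was the gene not tested.

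Part of these levels comes from transcripts that are not annotated as coding. The leading transcript of a gene held between 27.4% and 100% of that gene's TPM in control vehicle (median 73.1%), and it was protein-coding for 30 of the 34 genes. For PHGDH the leading transcript of 34 was annotated as a retained intron and held 27.4%. For MTHFD2 it was ENST00000470592, annotated for nonsense-mediated decay, with 51.3% ± 2.92.

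The genes were listed by symbol as genes of the ATF4 stress response and of one-carbon metabolism. Their promoters were then searched for the element that ATF4 and C/EBP proteins bind. A list of ATF4 response genes may hold this element more often by its choice, so the share found is not an independent result. Of the 34 genes, 27 have start sites in the RefSeq promoter table (GRCh38.p14), with 46 starts between them. The core TGATGNAA, searched on both strands in the 250 bases before each start, was present at 7 of the 46 starts (15.2%), beside 3.14% of all 35116 starts. It lay in 6 genes, 1 site of each being shown here because these are the letters an ATF4 and C/EBP pair recognises. Capitals mark the element, which is read 5′ to 3′ in every line.
ASNS: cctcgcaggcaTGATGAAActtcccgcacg
ATF3: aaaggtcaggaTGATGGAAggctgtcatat
CEBPG: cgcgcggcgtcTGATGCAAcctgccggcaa
CHAC1: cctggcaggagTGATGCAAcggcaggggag
JDP2: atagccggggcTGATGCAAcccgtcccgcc
MTHFD1L: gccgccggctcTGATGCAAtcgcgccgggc
The free base of the element was A in ASNS, G in ATF3, and C in CEBPG, CHAC1, JDP2 and MTHFD1L. The windows lie at chr7:97872458-97872487 (minus strand) for ASNS, chr1:212565205-212565234 (plus) for ATF3, chr19:33374060-33374089 (plus) for CEBPG, chr15:40953251-40953280 (minus) for CHAC1, chr14:75427995-75428024 (plus) for JDP2 and chr6:150866346-150866375 (plus) for MTHFD1L. Of these 6 genes, ASNS, ATF3, CEBPG, CHAC1 and MTHFD1L rose with R1881 in control cells and JDP2 fell. None of the 6 was among the 11 genes whose R1881 response differed with siNFYA.

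CCAAT, the letters that NF-Y contacts, was also searched on both strands (ATTGG on the opposite strand). It was present at 23 of the 46 starts (50%), beside 32.0% of all starts, and in 19 of the 27 genes (70.4%), beside 37.0% of the 27305 genes in the table. A gene was counted if any of its starts held the letters. The 27 genes had 46 starts, where the 27305 had 35116, so the listed genes had more starts each to be searched. The 27305 genes were taken whether or not they were expressed in these cells. CCACG, a part of the endoplasmic reticulum stress element, was present at 26 starts (56.5%), beside 33.5% of all starts. No start held a CCAAT that overlapped a TGATGNAA, but starts of the same gene can share a site, so that starts are not independent. The promoters of 3 genes are shown as examples, with CCAAT or ATTGG in capitals: PSAT1, whose R1881 response differed with siNFYA, SESN2, which rose with siNFYA in vehicle but had no such interaction, and DDIT3, which did not pass the test in any comparison.
PSAT1: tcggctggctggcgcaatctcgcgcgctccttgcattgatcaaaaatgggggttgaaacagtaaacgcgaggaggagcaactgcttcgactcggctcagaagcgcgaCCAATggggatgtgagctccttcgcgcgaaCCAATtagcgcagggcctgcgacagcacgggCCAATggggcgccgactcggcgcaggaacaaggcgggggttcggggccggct
SESN2: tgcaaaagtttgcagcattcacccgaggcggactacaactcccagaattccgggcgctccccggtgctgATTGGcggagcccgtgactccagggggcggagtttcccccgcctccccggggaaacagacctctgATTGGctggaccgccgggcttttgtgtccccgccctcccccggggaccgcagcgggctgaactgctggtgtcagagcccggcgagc
DDIT3: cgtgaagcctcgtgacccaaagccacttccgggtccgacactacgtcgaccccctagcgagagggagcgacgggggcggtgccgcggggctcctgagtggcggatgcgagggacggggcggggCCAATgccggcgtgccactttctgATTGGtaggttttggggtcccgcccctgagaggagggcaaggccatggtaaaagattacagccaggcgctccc
PSAT1 held 3 CCAAT sites (chr9:78296905-78297124, plus strand), SESN2 held 2 (chr1:28259298-28259517, plus) and DDIT3 held 2 (chr12:57520518-57520737, minus), each over 220 bases. CCAAT was present in 8 of the 10 genes with a start in the table whose R1881 response differed with siNFYA, and in 11 of the other 17 genes. A match says only that these letters are present, and no binding was measured here.

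**Figure D1:**
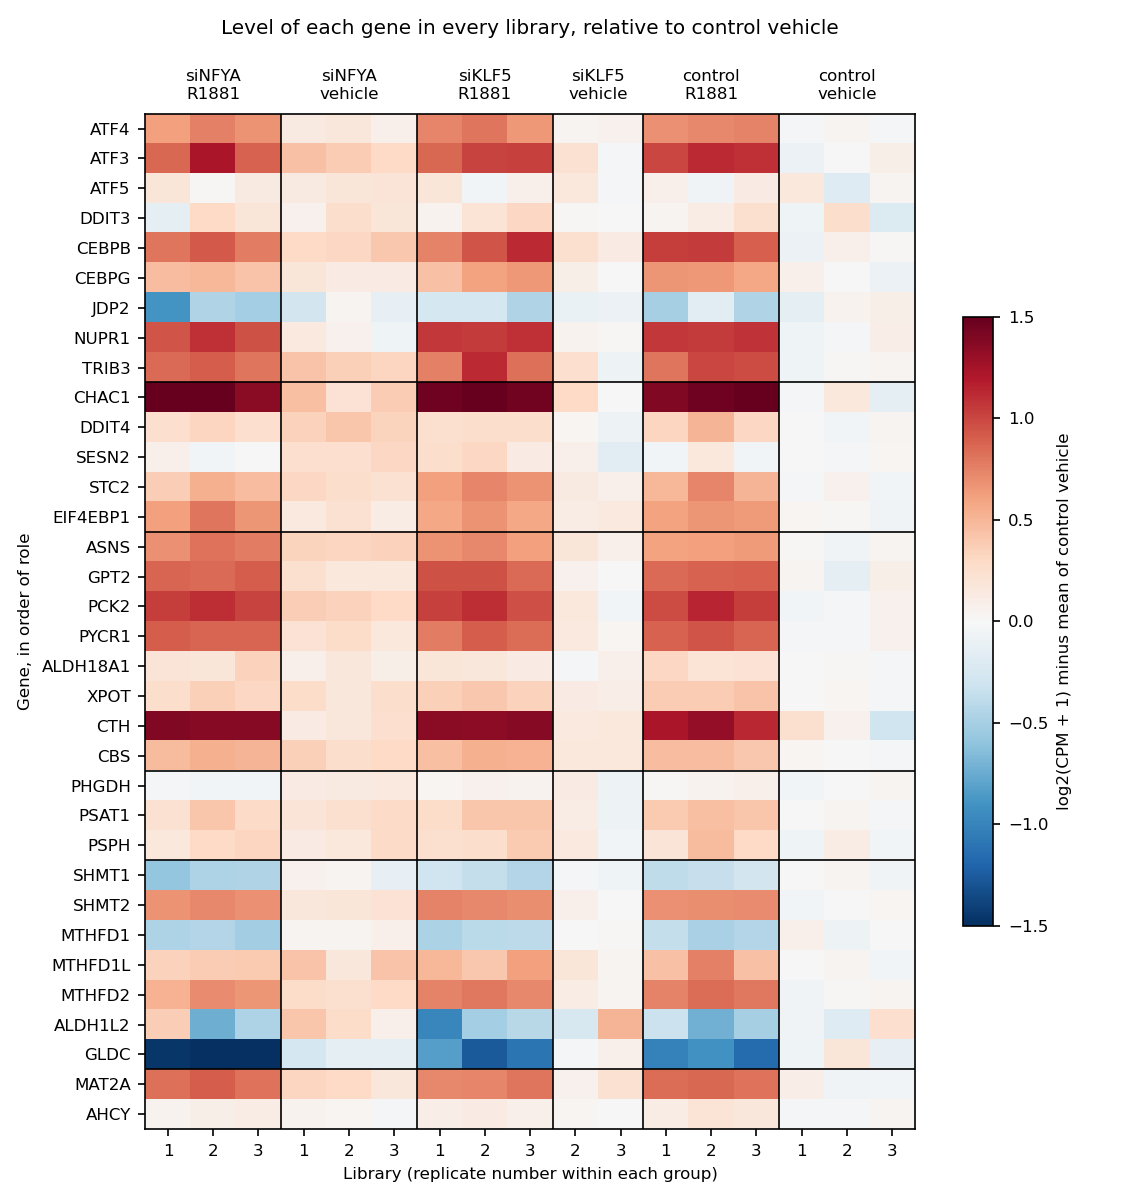
Level of each of the 34 genes (rows, in order of role) in every library (columns, grouped by siRNA and treatment), as log2(CPM + 1) minus the mean of control vehicle. R1881 libraries are red for most genes and blue for JDP2, SHMT1, MTHFD1 and GLDC under all 3 siRNAs, and siNFYA vehicle libraries are faintly red for most genes.

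The response to the androgen was read first in cells with control siRNA, R1881 against vehicle. ATF4 itself (chr22:39519695-39522685, plus strand) had 531, 543 and 552 CPM in R1881 libraries, against 325, 339 and 322 CPM in vehicle libraries. The groups did not overlap, and the log2 fold change was 0.72 ± 0.04 (standard error of the fit; edgeR quasi-likelihood test, adjusted p = 1.92e-14). In bulk RNA, a change in the number of cells that carry a transcript and in its amount per cell cannot be told apart.

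Over the list, 25 of 33 tested genes were higher and 4 were lower at adjusted p under 0.05, in a comparison in which 32.1% of all 12601 tested genes were higher and 30.8% were lower, 62.9% in all. The median log2 change was 0.58 for the 33 genes and -0.01 for all tested genes. The share of the listed genes that rose was therefore well above the background share and the share that fell was below it. With library totals in place of TMM scaling 22 were higher and 7 lower, and the median of all genes was then -0.247 while that of the list was 0.347.

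CHAC1 (chr15:40952962-40956519, plus strand), an enzyme that breaks down glutathione, had the highest rise. It had 37.5, 39.5 and 41.0 CPM with R1881, against 13.4, 15.5 and 12.4 CPM in vehicle (log2 1.51 ± 0.10, adjusted p = 2.99e-12, edgeR). CTH (chr1:70411218-70439851, plus), the cystathionine gamma-lyase that makes cysteine, had 21.1, 22.5 and 19.7 CPM with R1881, against 10.1, 8.88 and 6.66 CPM in vehicle (log2 1.297 ± 0.13, adjusted p = 2.90e-09, edgeR). For both genes every R1881 library lay well above every vehicle library. ATF3 (chr1:212565334-212620777, plus), a stress-induced factor of the ATF family, had 54.1, 58.6 and 57.8 CPM with R1881, against 24.9, 26.5 and 28.3 CPM in vehicle (log2 1.10 ± 0.09, adjusted p = 1.18e-10, edgeR). NUPR1 (chr16:28532708-28539174, minus), a small stress-induced nuclear protein, had 293, 291 and 298 CPM with R1881, against 134, 138 and 150 CPM in vehicle (log2 1.06 ± 0.05, adjusted p = 2.20e-15, edgeR). Both sets of libraries were tight and did not overlap. PCK2 (chr14:24094053-24110598, plus), the mitochondrial phosphoenolpyruvate carboxykinase, had 372, 418 and 388 CPM with R1881, against 183, 186 and 197 CPM in vehicle (log2 1.05 ± 0.04, adjusted p = 6.65e-17, edgeR).

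Among the other transcription factors and partners, CEBPB rose by 1.02 on the log2 scale, the ATF4-binding pseudokinase TRIB3 by 0.94 and CEBPG, a dimer partner of ATF4, by 0.63. ATF5 (0.04) and DDIT3 (0.12), which encodes CHOP, did not pass the test. ATF5 overlaps NUP62 on the opposite strand. DDIT3 had 17.7, 18.5 and 20.4 CPM with R1881, against 16.4, 20.8 and 14.8 CPM in vehicle, so that the groups overlapped, and it shares its locus with MARS on the opposite strand. JDP2, a repressor of the Jun family, fell by 0.39 on the log2 scale (11.5, 14.8 and 11.9 CPM with R1881, against 14.9, 17.3 and 17.8 CPM in vehicle). The JDP2 groups nearly touch, and its call was lost in DESeq2 and without control vehicle replicate 2 or 3 or control R1881 replicate 1 or 3, at an adjusted p of up to 0.0791.

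Of the stress effectors, CHAC1, the translation repressor EIF4EBP1 (0.64), the secreted glycoprotein STC2 (0.58) and the mTORC1 inhibitor DDIT4 (0.38) rose, and SESN2, a leucine sensor that also restrains mTORC1, did not pass (0.03). All 8 genes of amino acid supply rose. Beside CTH and PCK2 these were PYCR1 (0.90) and ALDH18A1 (0.24) of proline synthesis, the mitochondrial alanine aminotransferase GPT2 (0.87), the asparagine synthetase ASNS (0.62), the cystathionine synthase CBS (0.44) and the tRNA exporter XPOT (0.39). The ALDH18A1 rise did not hold under upper-quartile scaling (0.08), library totals (0.01) or on log2(TPM + 1) (0.05). ASNS overlaps AC005326.1 on the opposite strand and CBS has a copy, CBSL, so their values are uncertain to the extent that reads were shared.

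The serine synthesis enzymes PSAT1 (0.42) and PSPH (0.33) rose, and the value of PSPH is uncertain because it has the pseudogene copy PSPHP1. The PSPH rise did not hold with library totals (0.09). PHGDH had 583, 598 and 607 CPM with R1881, against 558, 574 and 591 CPM in vehicle. Its change was 0.05 and did not pass, and it was negative under upper-quartile scaling (-0.11), library totals (-0.19) and on log2(TPM + 1) (-0.13).

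Within the folate cycle the genes went opposite ways. SHMT2 (0.70), MTHFD2 (0.79) and MTHFD1L (0.57), which act in mitochondria, rose. MTHFD2 had 269, 287 and 279 CPM with R1881, against 154, 163 and 165 CPM in vehicle. The cytosolic trifunctional enzyme MTHFD1 (chr14:64388031-64463457, plus) fell, with 140, 128 and 133 CPM in R1881 libraries, against 189, 171 and 180 CPM in vehicle libraries (log2 -0.44 ± 0.05, adjusted p = 1.30e-08, edgeR). The cytosolic SHMT1 (chr17:18327860-18363563, minus) fell as well, with 65.2, 66.6 and 70.2 CPM in R1881, against 85.6, 87.1 and 82.2 CPM in vehicle (log2 -0.34 ± 0.06, adjusted p = 3.33e-05, edgeR). Neither gene's groups overlapped. On the opposite strand SHMT2 overlaps NDUFA4L2, MTHFD1 overlaps ZBTB25 and SHMT1 overlaps SMCR8. The values of these genes are uncertain to the extent that reads were shared. GLDC (chr9:6532464-6645783, minus), the glycine decarboxylase of the glycine cleavage system, had the largest fall of the list. It had 3.77, 4.12 and 3.31 CPM with R1881, against 8.19, 9.88 and 7.85 CPM in vehicle (log2 -1.21 ± 0.20, adjusted p = 1.17e-05, edgeR), which rests on 17 to 22 counts per R1881 library. The TPM values of GLDC differed from this, with 3.13, 4.10 and 6.898 TPM in R1881 libraries against 5.22, 5.80 and 5.19 TPM in vehicle libraries. These overlapped, and on log2(TPM + 1) the change was -0.22 and did not pass, so that the size of the fall depends on the unit, and why was not tested. In the methionine cycle MAT2A, which makes S-adenosylmethionine, rose by 0.84, and AHCY by 0.16, a change that turned negative under upper-quartile scaling (-0.00), library totals (-0.08) and on log2(TPM + 1) (-0.03).

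**Figure D2:**
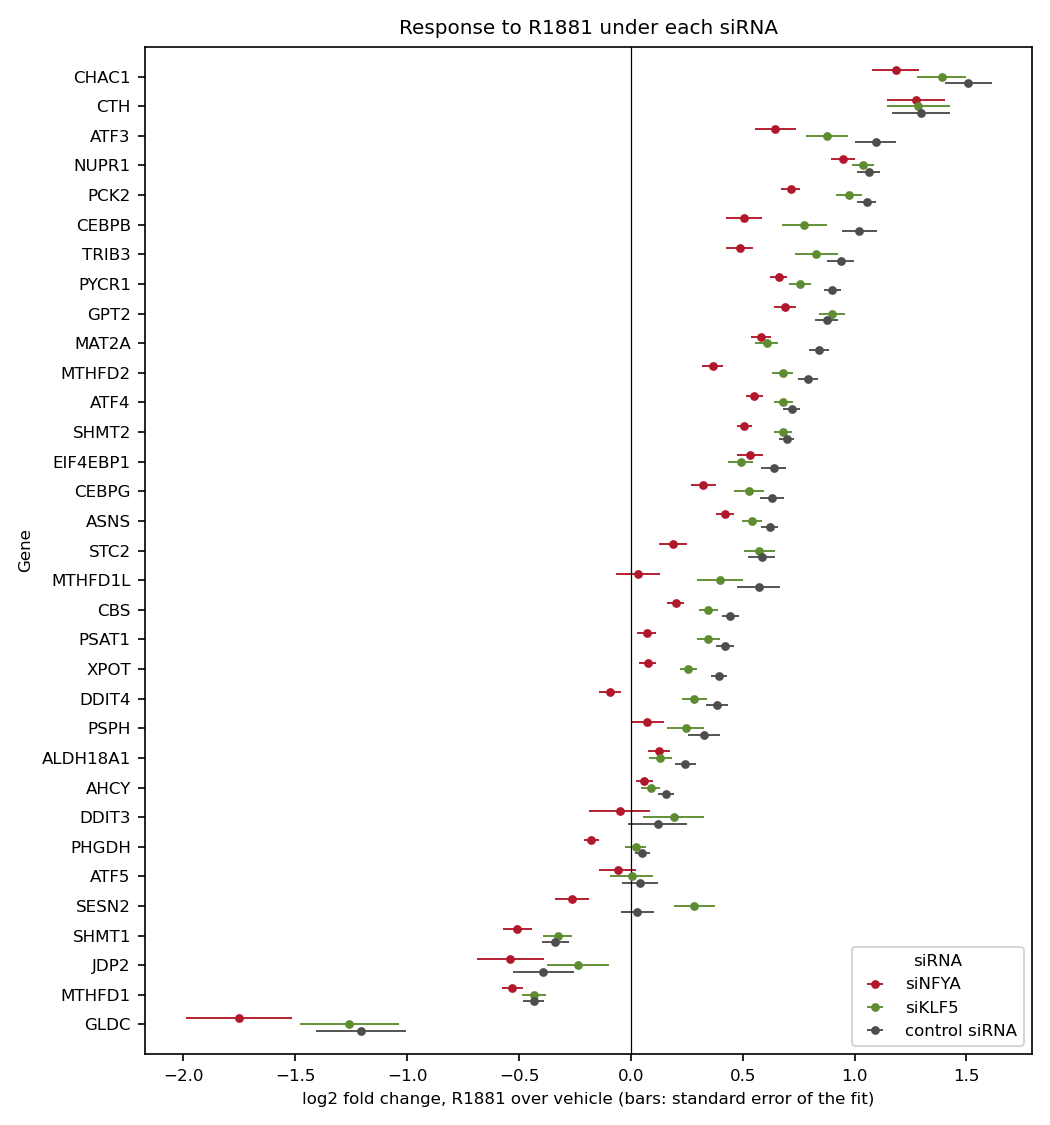
Log2 fold change of R1881 over vehicle for each tested gene (points, with the standard error of the fit as bars) with siNFYA, siKLF5 and control siRNA. CHAC1 lies at 1.18, 1.39 and 1.51 under these 3 siRNAs, and the siNFYA point lies to the left of the control point for all 33 genes.

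With the androgen response given as above for control cells, the knockdowns were set against control siRNA in the same treatment. In vehicle, siNFYA raised 20 of the 33 genes and lowered none at adjusted p under 0.05, in a comparison in which 6.67% of all tested genes were higher and 6.79% were lower. The median log2 change was 0.19 for the list and -0.00 for all tested genes, and 31 of the 33 changes were positive. No gene reached a 2-fold change. This comparison and that of R1881 in control cells use the same control vehicle libraries. In DESeq2 14 genes passed and on log2(TPM + 1) with limma 10 did, and leaving out single libraries gave 15 to 19 calls.

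The mitochondrially encoded share of counts was also higher in these libraries, at 2.60% to 3.00% with siNFYA against 1.77% to 2.07% with control siRNA in vehicle. It was higher with siKLF5 in vehicle as well, at 2.46% to 2.96%. One library, siNFYA vehicle replicate 3, had 2.85% of its counts in an rRNA-like gene, where the other libraries had 0.0902% to 0.424%. With mitochondrially encoded and rRNA-like genes left out 20 genes passed, as many as before, and without siNFYA vehicle replicate 3 the count was 18.

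ATF3 had the largest rise of the list with siNFYA in vehicle, at 36.2, 34.8 and 32.8 CPM with siNFYA, against 24.9, 26.5 and 28.3 CPM with control siRNA (log2 0.39 ± 0.10, adjusted p = 0.0111, edgeR). TRIB3 had 76.8, 73.3 and 71.4 CPM with siNFYA, against 54.5, 57.6 and 58.8 CPM with control siRNA (log2 0.38 ± 0.07, adjusted p = 3.45e-04, edgeR). DDIT4 (chr10:72273920-72276036, plus) had 190, 201 and 189 CPM with siNFYA, against 149, 146 and 155 CPM with control siRNA (log2 0.37 ± 0.05, adjusted p = 1.75e-05, edgeR). In none of these genes did the libraries of the groups overlap. CHAC1 had 19.2, 16.1 and 18.1 CPM with siNFYA, against 13.4, 15.5 and 12.4 CPM with control siRNA (log2 0.37 ± 0.12, adjusted p = 0.0452, edgeR). MTHFD1L had 36.5, 30.3 and 36.4 CPM with siNFYA, against 26.8, 27.8 and 26.2 CPM with control siRNA (log2 0.35 ± 0.10, adjusted p = 0.0178, edgeR). The calls of ATF3, CHAC1 and MTHFD1L were each lost without some single library. ATF3 had an adjusted p of 0.0551 without control vehicle replicate 1 and 0.0581 without siNFYA vehicle replicate 1. CHAC1 reached 0.186 and MTHFD1L 0.0982 without siNFYA vehicle replicate 1, and both were also lost without control vehicle replicate 1 or 3 and without siNFYA vehicle replicate 3.

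Most of the other genes that rose encode enzymes. ASNS (chr7:97852118-97872542, minus) had 238, 235 and 238 CPM with siNFYA and 190, 181 and 193 CPM with control siRNA in vehicle, a log2 change of 0.34. PCK2 rose by 0.34, CBS by 0.31, MAT2A by 0.27, MTHFD2 by 0.27, PSAT1 by 0.24, XPOT by 0.24, PYCR1 by 0.22, SHMT2 and GPT2 by 0.19 each, and PHGDH by 0.14. CEBPB (0.35), SESN2 (0.28), STC2 (0.27) and ATF4 (0.13) rose as well. In DESeq2 the calls of CEBPB (adjusted p = 0.0586), SESN2 (0.107), GPT2 (0.0716), CHAC1 (0.162), MTHFD1L (0.0782) and ATF4 (0.0957) were lost. The rise of ATF4 was among the smallest of the 20, at 362, 369 and 345 CPM with siNFYA against 325, 339 and 322 CPM with control siRNA, and its call was also lost in limma on TPM and without control vehicle replicate 1 or 3 or siNFYA vehicle replicate 1 or 2, at an adjusted p of up to 0.226. The GPT2 call was lost without control vehicle replicate 2 and without siNFYA vehicle replicate 1. By role, 4 of 9 transcription factors and partners, 4 of 5 stress effectors, 6 of 8 genes of amino acid supply, 2 of 3 of serine synthesis, 3 of 6 of the folate cycle and glycine cleavage, and 1 of 2 of the methionine cycle rose. The genes that R1881 lowered in control cells did not pass: JDP2 had -0.12, GLDC -0.21, SHMT1 0.00 and MTHFD1 0.05.

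With R1881 present, siNFYA against control siRNA gave 1 higher gene and 1 lower gene, with 2.63% of all genes higher and 3.33% lower, 5.96% in all, so that both counts were near the background. ASNS had 303, 330 and 321 CPM with siNFYA, against 285, 289 and 294 CPM with control siRNA (log2 0.14 ± 0.04, adjusted p = 0.0318, edgeR). MTHFD2 had 231, 264 and 254 CPM with siNFYA, against 269, 287 and 279 CPM with control siRNA (log2 -0.16 ± 0.04, adjusted p = 0.0379, edgeR). Neither group pair overlapped, yet both calls rested on single libraries. The ASNS call was lost in DESeq2, in limma on TPM, and without control R1881 replicate 1, 2 or 3 or siNFYA R1881 replicate 2 or 3, at an adjusted p of up to 0.285. The MTHFD2 call was lost in DESeq2, under upper-quartile scaling, with only the compared groups in the fit, and without control R1881 replicate 2 or 3 or siNFYA R1881 replicate 1 or 3, at an adjusted p of up to 0.17. The median of the list was -0.06, 10 genes had an unadjusted p under 0.05, beside 19% of all genes, and 24 of the 33 changes were negative.

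**Figure D3:**
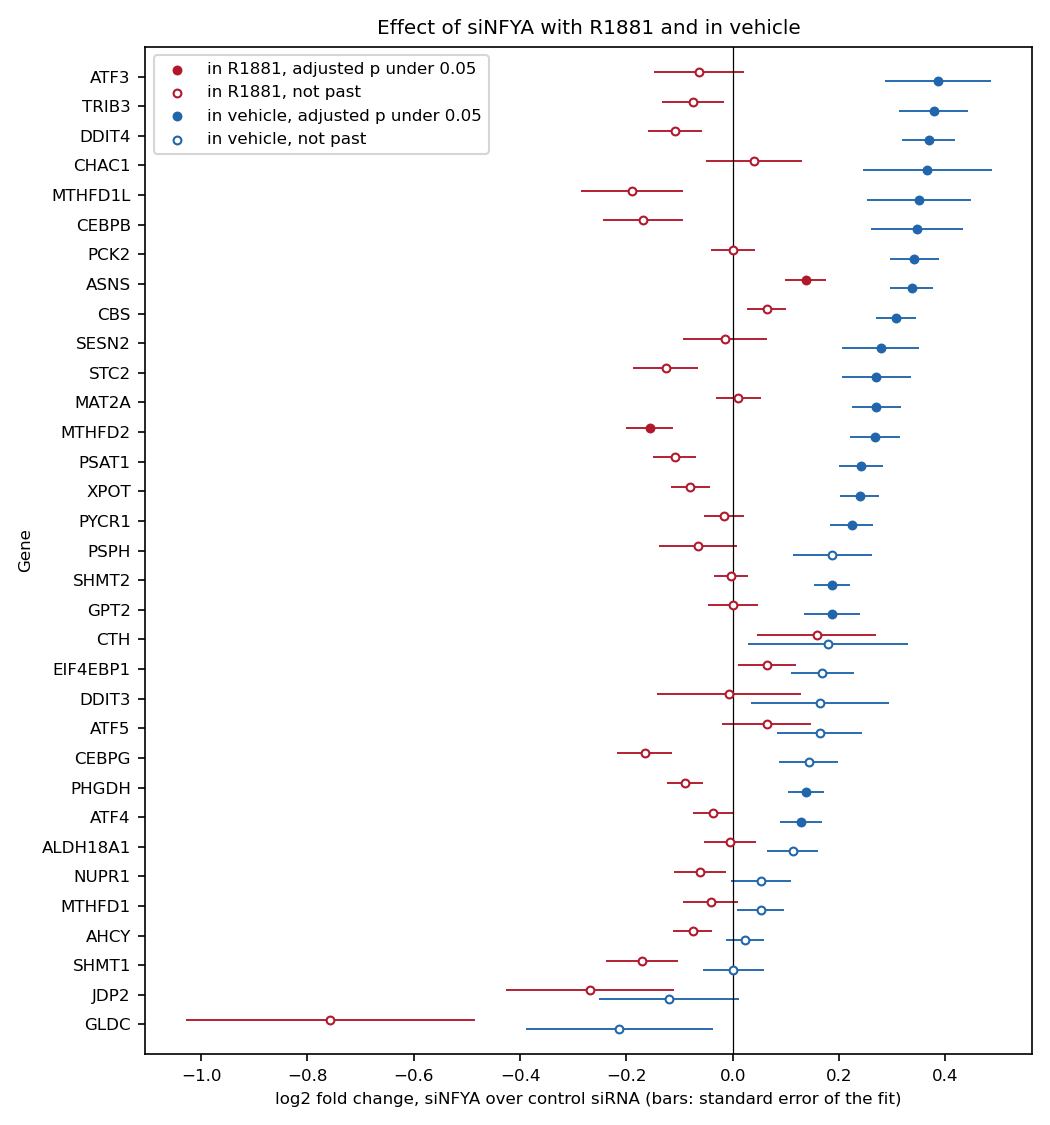
Log2 fold change of siNFYA over control siRNA for each tested gene, with R1881 (red) and in vehicle (blue), with the standard error of the fit as bars and filled points for adjusted p under 0.05. In vehicle 20 points are filled, all to the right of 0, and with R1881 2 are filled, ASNS at 0.14 and MTHFD2 at -0.16.

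The test of the difference between these effects, the interaction of siNFYA with R1881, was negative for all 33 genes, with a median of -0.24 on the log2 scale beside -0.01 for all tested genes. It passed for 11 genes, all lower, in a comparison in which 0.389% of all genes were lower and 0.333% higher. The siNFYA effect in vehicle and the R1881 effect in control cells are both terms of this difference, from the same libraries. The 11 are CEBPB and TRIB3 among the transcription factors and partners, DDIT4 and STC2 among the stress effectors, PCK2, PYCR1, XPOT and CBS of amino acid supply, PHGDH and PSAT1 of serine synthesis, and MTHFD2 of the folate cycle. On log2(TPM + 1) none passed, though 32 of 33 were negative there with a median of -0.29. The count was 6 without control R1881 replicate 2 and also 6 without siNFYA R1881 replicate 3.

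DDIT4 had the lowest p-value of the list. It had 178, 188 and 178 CPM with siNFYA and R1881 against 190, 201 and 189 CPM with siNFYA and vehicle, whereas control cells had 188, 214 and 186 CPM with R1881 against 149, 146 and 155 CPM in vehicle (interaction -0.48 ± 0.07, adjusted p = 7.31e-04, edgeR). The R1881 rise seen with control siRNA was not seen in the siNFYA libraries, where the change was -0.09 and did not pass. MTHFD2 had 231, 264 and 254 CPM with siNFYA and R1881 against 194, 189 and 197 CPM with siNFYA and vehicle (interaction -0.42 ± 0.07, adjusted p = 0.00125, edgeR). It still rose with R1881 under siNFYA, by 0.37 against 0.79 in control cells.

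XPOT had 415, 443 and 428 CPM with siNFYA and R1881 against 417, 388 and 414 CPM with siNFYA and vehicle, where control cells had 448, 447 and 464 CPM with R1881 against 345, 351 and 336 CPM in vehicle (interaction -0.32 ± 0.05, adjusted p = 0.00202, edgeR). PSAT1 had 397, 454 and 413 CPM with siNFYA and R1881 against 389, 401 and 412 CPM with siNFYA and vehicle, where control cells had 446, 464 and 455 CPM with R1881 against 337, 349 and 332 CPM in vehicle (interaction -0.35 ± 0.06, adjusted p = 0.0025, edgeR). For both genes the treatments overlapped under siNFYA and did not under control siRNA. PCK2 had 389, 407 and 381 CPM with siNFYA and R1881 against 244, 240 and 232 CPM with siNFYA and vehicle (interaction -0.34 ± 0.06, adjusted p = 0.00541, edgeR). Its R1881 level was close to that of control cells, 372 to 418 CPM, and its vehicle level was above the 183 to 197 CPM of control cells. TRIB3 had 103, 108 and 99.9 CPM with siNFYA and R1881 against 76.8, 73.3 and 71.4 CPM with siNFYA and vehicle (interaction -0.45 ± 0.09, adjusted p = 0.0105, edgeR).

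These 6 genes, DDIT4, MTHFD2, XPOT, PSAT1, PCK2 and TRIB3, passed in every fit made on counts, including each of the 12 fits without a single library. The other 5 did not. PHGDH had 563, 556 and 559 CPM with siNFYA and R1881 against 628, 631 and 636 CPM with siNFYA and vehicle, a fall of -0.18 that passed under siNFYA, where control cells had a change of 0.05 (interaction -0.23 ± 0.05, adjusted p = 0.0195, edgeR). CBS had an interaction of -0.24 ± 0.05 (adjusted p = 0.0248), CEBPB of -0.52 ± 0.11 (0.03), STC2 of -0.40 ± 0.09 (0.0301) and PYCR1 of -0.24 ± 0.05 (0.0352), all edgeR adjusted p-values. Without control R1881 replicate 2 their adjusted p-values were 0.0663 for PHGDH, 0.0851 for CBS, 0.0926 for CEBPB, 0.11 for STC2 and 0.127 for PYCR1. Without siNFYA R1881 replicate 3 they were 0.0671, 0.0697, 0.0937, 0.084 and 0.0988 in the same order, and other single libraries also ended these calls, at an adjusted p of up to 0.132.

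**Figure D4:**
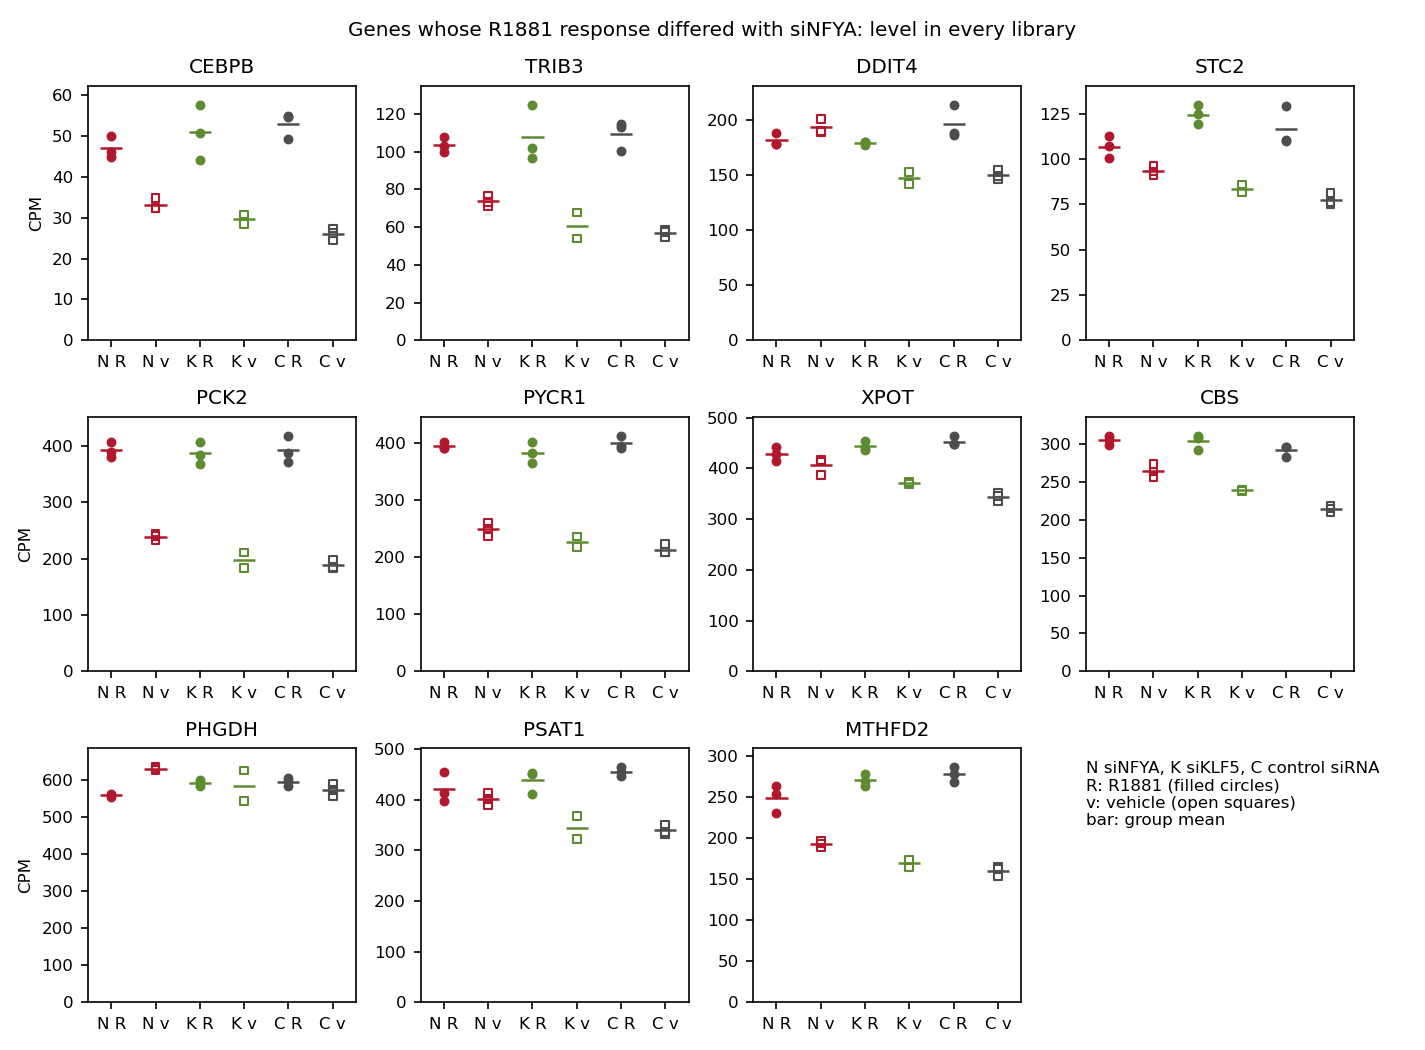
CPM in every library of the 11 genes whose R1881 response differed with siNFYA, for siNFYA, siKLF5 and control siRNA with R1881 (filled circles) and in vehicle (open squares), with the group mean as a bar. For DDIT4 the siNFYA circles (178 to 188 CPM) lie below the siNFYA squares (189 to 201 CPM), whereas the control circles (186 to 214 CPM) lie above the control squares (146 to 155 CPM).

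Several genes fell just short of this threshold, among them MAT2A (-0.26, adjusted p = 0.0501), SHMT2 (-0.19, 0.0544), CEBPG (-0.31, 0.0552) and MTHFD1L (-0.54, 0.0608), again by edgeR. In all, 22 of 33 genes had an unadjusted p under 0.05, beside 12% of all genes. At the other end CTH had the smallest interaction, -0.02, with a standard error of 0.19. It had 23.8, 23.4 and 23.4 CPM with siNFYA and R1881, against 9.31, 9.59 and 10.2 CPM with siNFYA and vehicle.

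Within siNFYA cells R1881 raised 19 of 33 genes and lowered 6, where 31.2% of all genes were higher and 31% were lower, 62.1% in all. With library totals these counts were 15 and 11. The largest rises under siNFYA were those of CTH (1.28), CHAC1 (1.18), NUPR1 (0.95), PCK2 (0.71) and GPT2 (0.69). GPT2 had 224, 219 and 229 CPM with siNFYA and R1881, against 144, 136 and 135 CPM with siNFYA and vehicle. The 19 genes had all risen in control cells too. The 6 genes that rose in control cells and did not pass under siNFYA were AHCY, DDIT4, MTHFD1L, PSAT1, PSPH and XPOT, of which DDIT4, PSAT1 and XPOT passed the interaction. GLDC fell by 1.75 on the log2 scale under siNFYA, with 2.49, 2.34 and 1.72 CPM in R1881 libraries against 6.98, 7.71 and 7.67 CPM in vehicle libraries. JDP2 (-0.54), MTHFD1 (-0.53), SHMT1 (-0.51), SESN2 (-0.26) and PHGDH (-0.18) fell as well. JDP2 had 8.44, 11.9 and 11.4 CPM with siNFYA and R1881, against 13.6, 17.1 and 15.1 CPM with siNFYA and vehicle, and SESN2 had 40.9, 37.7 and 39.0 CPM against 46.4, 46.3 and 48.4 CPM. The siNFYA rises of ALDH18A1 (0.13), CBS (0.20) and STC2 (0.19) turned negative with library totals, at -0.10, -0.02 and -0.04.

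The other knockdown gave a different count. With siKLF5 against control siRNA no gene of the list passed in edgeR, in vehicle or with R1881. DESeq2 gave an adjusted p for only 15 of the 33 genes in vehicle and 17 with R1881, and none of these passed. Of all 12733 tested genes 0.77% were higher and 0.55% lower in vehicle, 1.32% in all, and 0.832% and 0.55% with R1881, 1.38% in all, so that the count of 0 lay near the background. In vehicle 5 of the 33 genes had an unadjusted p under 0.05, all of them higher, a share near the 12.9% of all genes at that threshold. They were CBS (0.15), MAT2A (0.14), ASNS (0.13), EIF4EBP1 (0.13) and XPOT (0.11). CBS had 240 and 238 CPM with siKLF5, against 218, 215 and 209 CPM with control siRNA, without overlap (adjusted p = 0.0807, edgeR). ASNS had 214 and 199 CPM with siKLF5, against 190, 181 and 193 CPM with control siRNA. Without siKLF5 vehicle replicate 2 the MAT2A rise passed, at 0.22 with an adjusted p of 0.0299, a fit in which the remaining library is taken to vary like the other groups. With R1881, 2 of the 33 genes had an unadjusted p under 0.05, SESN2 (0.22) and DDIT4 (-0.12), a share below the 12.5% of all genes. A p-value above the threshold does not show that the siKLF5 and control libraries were alike, the more so in vehicle with n = 2. In vehicle 28 of the 33 changes were positive, with a median log2 change of 0.05 beside -0.01 for all tested genes. Without siKLF5 vehicle replicate 2 that median was -0.001. With R1881 15 of the 33 changes were positive. Both knockdowns were compared with the same control libraries, so the signs seen with siKLF5 and siNFYA are not independent.

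R1881 raised 25 genes and lowered 3 in siKLF5 cells, where 30.7% of all genes were higher and 28.4% were lower, 59.2% in all. With library totals these counts were 18 and 7. The 5 largest rises, CHAC1 (1.39), CTH (1.28), NUPR1 (1.04), PCK2 (0.98) and GPT2 (0.90), and the falls of GLDC (-1.26), MTHFD1 (-0.43) and SHMT1 (-0.33) were close to those of control cells. GLDC had 4.41, 3.00 and 3.51 CPM with siKLF5 and R1881, against 8.38 and 9.08 CPM with siKLF5 and vehicle. CHAC1 had 39.3, 42.5 and 39.1 CPM with siKLF5 and R1881, against 17.0 and 13.8 CPM with siKLF5 and vehicle. The interaction of siKLF5 with R1881 passed for none of the 33 genes in edgeR, where 0.0157% of all genes were higher and 0% lower. In that fit 3 of the 33 had an unadjusted p under 0.05, beside 6.71% of all genes. Of the 33 interactions 26 were negative, with a median of -0.07 beside 0.01 for all tested genes. Without siKLF5 vehicle replicate 2 the median was -0.004. DESeq2 gave an adjusted p for only 9 of the 33, and none of these passed. Of the 25 genes that rose, 24 had risen in control cells, SESN2 being the exception (0.28, adjusted p = 0.00948, edgeR). The SESN2 call did not hold in DESeq2, under the other scalings, or without siKLF5 vehicle replicate 3 (0.17, adjusted p = 0.174) or siKLF5 R1881 replicate 2. Under all 3 siRNAs 19 genes rose and 3 fell with R1881. The share of all genes that did so under all 3 was not counted, so these 2 counts have no background beside them.

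For MAT2A the transcripts were not in constant proportion, and this was described from TPM without a test. ENST00000409017, a protein-coding transcript, held 4.78%, 5.61% and 4.32% of the gene with siNFYA and R1881 and 16.7%, 13.5% and 12.5% with siNFYA and vehicle. With siKLF5 it held 5.05%, 3.78% and 5.71% in R1881 libraries and 14.9% and 13.9% in vehicle libraries. With control siRNA it held 1.92%, 1.60% and 2.00% in R1881 libraries and 9.27%, 9.10% and 6.15% in vehicle libraries. Thus the share was lower with R1881 under every siRNA and higher with either knockdown than with control siRNA in both treatments, with no overlap between libraries. The leading transcript ENST00000306434 held 96.0% to 97.1% in control R1881 libraries and 84.1% to 89.5% in control vehicle libraries. MAT2A overlaps GGCX on the opposite strand.

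**Figure D5:**
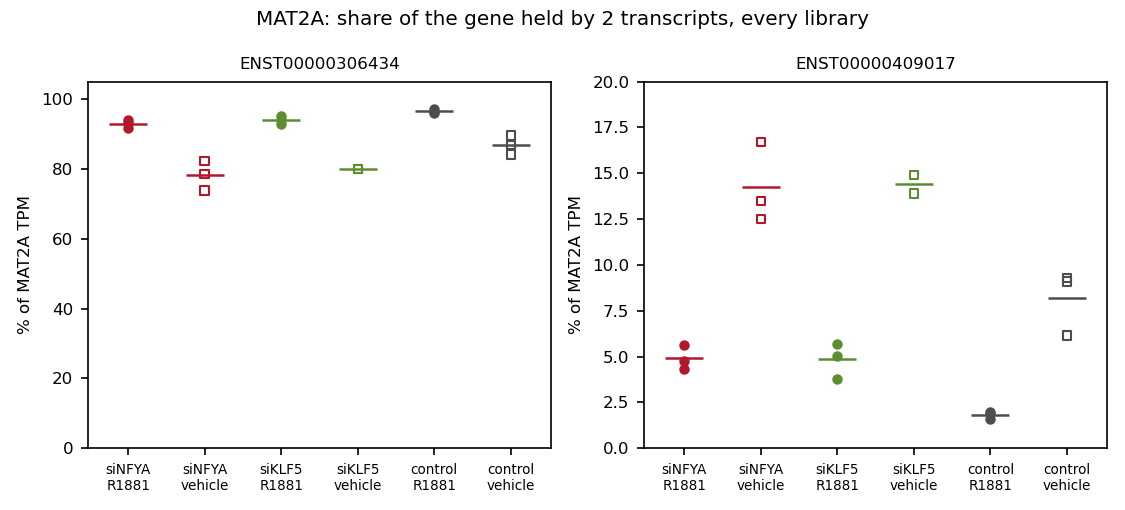
Share of MAT2A TPM held by the leading transcript ENST00000306434 (left) and by ENST00000409017 (right) in every library, for siNFYA, siKLF5 and control siRNA with R1881 (filled) and in vehicle (open), with the group mean as a bar. ENST00000409017 lies at 1.60% to 2.00% in control R1881 libraries and at 12.5% to 16.7% in siNFYA vehicle libraries.

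In ATF3 the transcript ENST00000613104 held 24.8%, 12.6% and 37.0% of the gene with siNFYA and R1881, 19.9%, 15.0% and 40.8% with siNFYA and vehicle, 12.7%, 32% and 19% with siKLF5 and R1881, and 24.3% and 25.9% with siKLF5 and vehicle. It held 36.8%, 16.2% and 29.9% with control siRNA and R1881, and 3.88%, 6.19% and 6.07% in control vehicle. The control vehicle libraries lay below every other library, and the remaining groups overlapped. The leading MTHFD2 transcript kept a share of 43.3% to 54.8% over all groups.

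The pathway around these genes was counted from lists of other genes. Of 9 genes for the eIF2 alpha kinases and their control, 4 rose and none fell with R1881 in control cells. Of all genes 32.1% were higher and 30.8% lower there, so that 4 of 9 higher was not far from the background. The 4 were led by EIF2AK3, the kinase PERK of the endoplasmic reticulum (1.17), PPP1R15B, the constitutive eIF2 alpha phosphatase subunit (1.03), and EIF2S1, eIF2 alpha itself (0.47). With library totals 4 of the 9 were lower. With siNFYA in vehicle GCN1, an activator of the kinase GCN2, rose (0.18), a call lost in DESeq2 and on TPM, and EIF2AK4, GCN2 itself, fell (-0.20), a call lost on TPM. Of all genes 6.67% were higher and 6.79% lower in that comparison.

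Of 27 other genes linked to ATF4, mainly amino acid carriers and tRNA synthetases, 24 rose and 2 fell with R1881 in control cells. Their median was 0.89, and 32.1% of all genes were higher and 30.8% lower in that comparison. The lipoprotein receptor VLDLR (1.81), the glutamine carrier SLC1A5 (1.80) and the growth factor VEGFA (1.68) rose most, and the large neutral amino acid carrier SLC7A5 (-0.86) and KLHL24 (-0.44) fell. With siNFYA in vehicle 15 rose and 1 fell, beside 6.67% and 6.79% of all genes. VEGFA (0.51), the glycine carrier SLC6A9 (0.43) and SLC1A5 (0.37) came first, and KLHL24 fell (-0.39). On log2(TPM + 1) 8 rose. With siNFYA and R1881 2 rose and 2 fell, beside 2.63% and 3.33% of all genes. The interaction of siNFYA with R1881 was lower for 7 of the 27 and higher for 1, beside 0.389% and 0.333% of all genes, and passed for none on log2(TPM + 1). Those with the largest difference were the cystine carrier SLC7A11 (-0.52, adjusted p = 6.48e-04), SLC1A5 (-0.44, adjusted p = 3.86e-04) and the cationic amino acid carrier SLC7A1 (-0.39, adjusted p = 0.00202), all by edgeR, whereas the carrier SLC38A2 had 0.29 (adjusted p = 0.00628, edgeR). With siKLF5 5 rose and 1 fell in vehicle, beside 0.77% and 0.55% of all genes. In R1881 2 rose and 2 fell, beside 0.832% and 0.55%. In vehicle 2 rose with only the compared groups in the fit and 0 on log2(TPM + 1). The 5 included SLC6A9 (0.53), SLC7A11 (0.26) and SLC1A5 (0.23), and TARS fell (-0.27).

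Of 27 genes of other folate, glycine and methionine steps 22 were tested, of which 9 rose and 8 fell with R1881 in control cells, shares near those of all genes (32.1% and 30.8%), with a median of 0.09, and 4 to 5 rose under library totals, upper-quartile scaling or on TPM. The methyltransferases GNMT (3.72) and NNMT (3.14) and the mitochondrial folate carrier SLC25A32 (0.68) rose most, and TYMS, the thymidylate synthase (-1.73), DMGDH (-0.93) and GGH (-0.88) fell most. With siNFYA in vehicle none rose and 2 fell, beside 6.67% and 6.79% of all genes. AHCYL1 (-0.14) was among those that fell, a call lost in DESeq2 and on TPM. No gene passed the interaction of siNFYA with R1881 in edgeR, nor in DESeq2 among those to which it gave an adjusted p. Of the 17 genes of the ATF6 and IRE1 arms of the unfolded protein response, all rose with R1881 in control cells, beside 32.1% of all genes. Their median was 1.55, and DNAJB9 (3.22), ERN1 (2.71) and HERPUD1 (2.24) rose most. With siNFYA in vehicle 3 rose, SDF2L1 (0.36), CRELD2 (0.27) and XBP1 (0.19), with 1 rising in DESeq2 and 0 on TPM, and the chaperones HSPA5 (-0.14) and HSP90B1 (-0.12) fell. The shares of all genes there were 6.67% higher and 6.79% lower. No gene of these arms passed the interaction with siNFYA in edgeR, where the median was -0.03, while 2 did in DESeq2.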

How the data were processed

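The analysis started from 4 tables of LNCaP RNA sequencing. Per the labels' protocols, RNA was purified on columns and a directional library kit was used. Per the submitters' processing notes FastQC, Trimmomatic, kallisto, DESeq2 and the GRCh38 genome were used. The sources used here give neither their versions nor the counting strand. The authors deposited estimated counts per gene, and joined values that hold for each gene and transcript an estimated count, a TPM value and an unnamed number that was not used. Estimated counts agreed between the tables within 5e-05. No column of another sample was present (0).

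The control and siNFYA table (12 libraries) and the control and siKLF5 table (11 libraries) were fitted separately. Estimated counts were rounded to whole numbers, filtered with filterByExpr, scaled by TMM and compared in edgeR 4.0.16 (R 4.3.3) by its quasi-likelihood test, with a coefficient per group and contrasts for 9 comparisons. Benjamini-Hochberg adjustment covered all tested genes, with 0.05 as the threshold for the adjusted p. Standard errors follow from the change and its F statistic. A CPM printed for a library was scaled over all 17 libraries together. Totals of 4416653 to 6872421 limit the precision of low genes.

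The fit was tested on simulated data. Gene positions come from GENCODE v29 on GRCh38, sequences from RefSeq (GRCh38.p14). Alternatives were DESeq2 1.42.0, other scalings, no filter, only the compared groups, limma 3.58.1 on log2(TPM + 1), omission of mitochondrially encoded and rRNA-like genes, a 2-fold rule, each library left out, and a promoter window of 150 bases in place of 250. The 5 largest rises and falls of each comparison are given with every library where first described, genes past an interaction are all named, and genes of other lists are named among the 3 largest in each direction. The named genes and lists were chosen with earlier results of these data known. Some genes of the lists are not reported here. Tables were made with Python 3.11.15 and pandas 2.3.3, figures with matplotlib 3.10.9.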

Additional observations from a re-analysis of the deposited data

Results flagged for a closer look

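The R1881 response of 11 genes differed between siNFYA and control siRNA by a test of the difference itself, the edgeR interaction, which is why each is listed here. The interaction, on the log2 scale, was -0.52 for CEBPB, -0.45 for TRIB3, -0.48 for DDIT4, -0.40 for STC2, -0.34 for PCK2, -0.24 for PYCR1, -0.32 for XPOT, -0.24 for CBS, -0.23 for PHGDH, -0.35 for PSAT1 and -0.42 for MTHFD2. All 11 differences were negative. The mitochondrially encoded share of counts was 2.54% to 2.62% in siNFYA R1881 libraries and 2.60% to 3.00% in siNFYA vehicle libraries, against 1.33% to 1.44% in control R1881 and 1.77% to 2.07% in control vehicle libraries. In siKLF5 libraries it was 2.20% to 2.82% with R1881 and 2.46% to 2.96% in vehicle, so the higher share was not particular to siNFYA. With mitochondrially encoded and rRNA-like genes left out 14 genes of the list passed.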

How the results depend on the processing

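Of 115 calls of single genes, 73 kept their direction and their side of the threshold in all alternatives that gave a value, and 42 did not. No paired analysis was possible because no label number is shared between groups. Requiring a 2-fold change left 6 higher and 1 lower gene for R1881 in control cells, 2 and 1 with siNFYA, 3 and 1 with siKLF5, and 0 for siNFYA in vehicle, siNFYA with R1881 in either direction and the interaction. For R1881, upper-quartile scaling, library totals and TPM moved the median of all genes to between -0.149 and -0.247. Lower genes then numbered 7 in control cells with library totals, 11 with siNFYA with library totals, and 5, 7 and 5 with siKLF5 under upper-quartile scaling, library totals and TPM. In control cells PHGDH became -0.11, -0.19 and -0.13 and AHCY -0.00, -0.08 and -0.03 under these 3 settings, and SESN2 became -0.21 and ATF5 -0.20 with library totals. With siNFYA ALDH18A1 became -0.03, -0.10 and -0.03 and AHCY -0.09, -0.16 and -0.15, CBS -0.02 with library totals and -0.06 on TPM, and STC2 -0.04, PSAT1 -0.15 and XPOT -0.15 with library totals. With siKLF5 ALDH18A1 became -0.02, -0.10 and -0.09 and PHGDH -0.14, -0.21 and -0.35, AHCY -0.15 with library totals and -0.17 on TPM, ATF5 -0.23 with library totals and XPOT -0.08 on TPM. These changes go with the shift of all genes; the cause was not otherwise tested. On log2(TPM + 1), 10 genes were higher with siNFYA in vehicle and 0 passed the siNFYA interaction. For siNFYA with R1881, the higher count was 0 in DESeq2 and on TPM, and the lower count was 0 in DESeq2, under upper-quartile scaling and with only the compared groups, and 2 without mitochondrially encoded and rRNA-like genes. Leaving out single libraries gave 0 to 1 higher and 0 to 2 lower genes there, 6 to 14 genes for the siNFYA interaction, and 0 to 1 higher for siKLF5 in vehicle; the cause was not tested. With 150 bases in place of 250, CCAAT was at 18, TGATGNAA at 5 and CCACG at 19 starts.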
